A study of Mus musculus with 4 samples.

Results

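The growth hormone and IGF1 axis was followed here through 9 genes, chosen by name and looked up by symbol among the 32285 mouse genes of single-nucleus RNA sequencing libraries from mouse liver. The choice was made with earlier results of these data known, so counts of members beside the share of all genes are descriptions. Each of the 9 was present once in the feature list: the receptor gene Ghr, the transducer Stat5b, the feedback genes Socs2 and Cish, the hormone gene Igf1, and the carrier genes Igfals, Igfbp1, Igfbp2 and Igfbp4. The study asked how a low-protein diet changes a liver that carries oncogenes. Bl/6 mice had been fed CD (chow diet) or LPD (low-protein diet) for 1 week, were injected through the tail vein, and stayed on their diet for 2 more weeks. The injection was hydrodynamic and carried Sleeping Beauty transposon plasmids for c-MET and ΔN90-β-catenin (oncogene) or vector (control), a route that reaches only some hepatocytes. Sex was given as male in the methods of the study. There were 4 libraries, 1 for each pairing of diet and injection label, and the number of mice behind a library was not given in the sources used here.

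Growth hormone from the pituitary binds its receptor on hepatocytes, JAK2 phosphorylates STAT5B, and STAT5B switches on Igf1, Igfals, Socs2 and Cish. IGF1 leaves the liver and circulates bound to IGF-binding proteins and to the acid-labile subunit encoded by Igfals. The timing of growth hormone pulses also sets the male or female pattern of many liver genes, and food and protein supply act on the axis through insulin and amino acid sensing. These statements are background.

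Of 44010 barcodes, 42877 nuclei were kept, and 30019 of these were hepatocyte-like: 7337 in the library labelled CD control, 8855 in the library labelled CD oncogene, 7360 in the library labelled LPD control and 6467 in the library labelled LPD oncogene. Of 8 hepatocyte markers, 3 (Apob, Cyp2e1 and Fgb) were at least 1.5-fold higher in hepatocyte-like nuclei than in the other classes together. RNA of abundant genes such as Alb was also found in the other classes, and its source there was not tested. Total UMIs (unique molecular identifiers, 1 per captured RNA molecule) per library ran from 23172463 to 62869348. Each group is a single library, so no difference can be tested, and every interval below is a 95% interval that covers counting error only. A difference of at least 1.5-fold on the CPM + 1 scale (CPM, the UMIs of a gene scaled by the total UMIs of the same nuclei) is called higher or lower. Where 4 values follow each other without names, they are in library order: control then oncogene label on CD, then control and oncogene label on LPD. In bulk sums such as these, fewer expressing nuclei and less RNA per nucleus cannot be told apart, so the share of nuclei with a UMI is given beside the level.

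The injection labels of the CD libraries went against the transgene counts. The library labelled CD control held 100 UMIs of the human c-MET and CTNNB1 transgene sequences, in 85 of its 7337 hepatocyte-like nuclei (1.16%, interval 0.926 to 1.43), at a median depth of 5225 UMIs. Its 2028 nuclei of other classes, at a median depth of 1203 UMIs, had none. The library labelled CD oncogene had 0 of 8855, for which a limit of 3 counts is 0.0339%, and the library labelled LPD control had 0 of 7360 (a limit of 0.0408% by the same rule). In the library labelled LPD oncogene 5 of 6467 hepatocyte-like nuclei held a transgene UMI. The nuclei counts that the study states for the CD groups are also in the reverse order of the deposited barcodes. Those numbered 11063 in the library labelled CD control and 13014 in CD oncogene. The CD labels may thus be exchanged, which cannot be settled here. The labels were kept as deposited, and each direction between the CD libraries turns if they are. The CD libraries were also deeper than the LPD libraries (median 5225 and 4348 against 2326 and 2380 UMIs per hepatocyte-like nucleus) and richer in mitochondrial RNA (median 1.52% and 0.614% against 0.0774% and 0.0924%). A cluster led by mitochondrial genes took 32.8% and 26.2% of their hepatocyte-like nuclei, against 10.04% and 11.7% on LPD. The part of depth and mitochondrial RNA in the differences by diet was not tested.

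The Ensembl gene models of the 9 genes, in GENCODE vM21 on GRCm38 (mm10), ran from 4765 bases for Igfbp1 (chr11:7197782-7202546, plus strand) to 265733 bases for Ghr (chr15:3317760-3583492, minus strand). Igf1 (ENSMUSG00000020053) is at chr10:87858265-87937042, Socs2 at chr10:95385362-95417180, Cish at chr9:107296026-107302784, Stat5b at chr11:100780731-100850724, Igfals at chr17:24865997-24882010, Igfbp2 at chr1:72824503-72852474 and Igfbp4 at chr11:99041244-99054392. All 9 are protein coding. Whether reads in introns were counted was not given in the sources used here, so levels were not compared between genes.

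RefSeq promoters on GRCm38.p6 were at hand for 8 of the 9 genes, at 13 start sites. None was at hand for Socs2, which was not searched. The 250 bases before each start were searched on both strands for the STAT5-type GAS motif TTCNNNGAA, the insulin response element CAAAACAA and the C/EBP-ATF response element TTGCATCA. Among the 8 genes searched, only Igfals and Igfbp1 held a match. Both upstream sequences are shown because these genes had, respectively, the call by diet and the widest spread between libraries below; capitals mark the match.
Igfals, chr17:24877594-24877843, plus strand: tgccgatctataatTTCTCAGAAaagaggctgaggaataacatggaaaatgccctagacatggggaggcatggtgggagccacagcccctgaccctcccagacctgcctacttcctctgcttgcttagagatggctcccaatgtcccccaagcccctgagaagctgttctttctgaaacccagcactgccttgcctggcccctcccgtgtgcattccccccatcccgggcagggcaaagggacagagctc
Igfbp1, chr11:7197537-7197786, plus strand: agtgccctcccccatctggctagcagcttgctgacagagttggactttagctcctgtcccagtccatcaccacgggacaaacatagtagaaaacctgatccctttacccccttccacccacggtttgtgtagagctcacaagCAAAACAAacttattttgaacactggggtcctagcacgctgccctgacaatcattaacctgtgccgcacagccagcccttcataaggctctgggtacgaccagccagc
The GAS match of Igfals lay 236 to 228 bases before the start, and another, TTCCTAGAA, lay 58 to 50 bases before its second start. The insulin response element of Igfbp1 lay 108 to 101 bases before the start. Among 32851 RefSeq promoters, 7.02% held a GAS match in the same 250 bases, 2.21% an insulin response element and 0.791% a C/EBP-ATF element, so a GAS match is common. These matches are letters in a window, and binding was not measured.

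Every one of the 9 genes passed the filter on low values (at least 20 CPM in 1 library and 50 UMIs in all) in the comparison by diet. Igfbp1, Socs2 and Cish spread most between the 4 libraries. Igfbp1 ranged over 3.74 on the log2 scale, more than 99.2% of the 7227 genes tested, Socs2 over 3.46 (98.96%) and Cish over 2.33 (96.1%), beside a median range of 0.67 over all genes. Igfbp4 and Stat5b spread least among the 9, over 0.85 and 0.87.

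**Figure D1:**
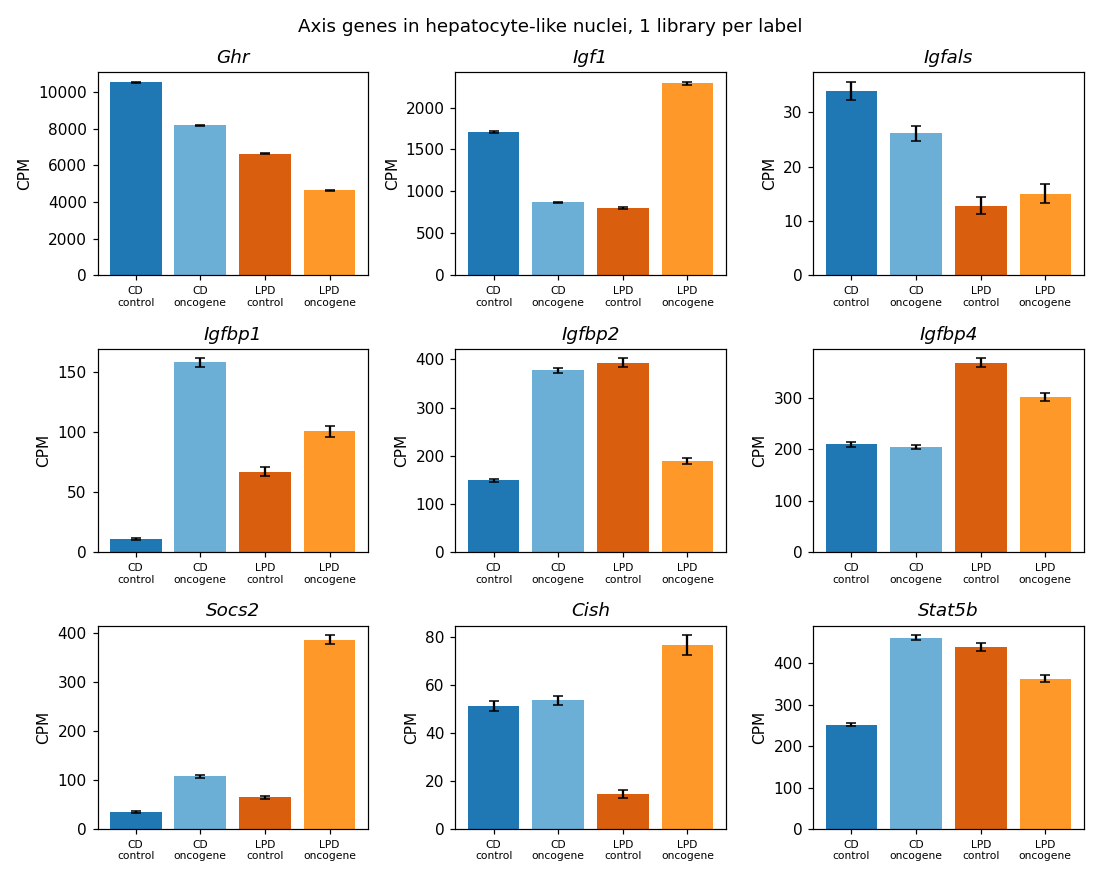
CPM of each of the 9 genes (y axis, from 0) in hepatocyte-like nuclei of the 4 libraries (x axis, by label). Bars are summed, depth-scaled counts and error bars exact Poisson 95% intervals; Igfals and Ghr are lower in both LPD libraries, Igfbp4 is higher in both, and Igfbp1, Socs2 and Cish each have 1 library far from the rest.

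Ghr, the receptor gene, leaned lower on LPD without a call. Its level was 10534 CPM in the library labelled CD control, 8169.5 CPM in CD oncogene, 6632 CPM in LPD control and 4642 CPM in LPD oncogene. The diets did not overlap, but the gap between the nearest libraries was 1.23-fold, under the 1.5-fold limit. Nearly every hepatocyte-like nucleus held a Ghr UMI, 95.2% or more in each library once nuclei were thinned to 1000 UMIs each. On the same thinning the other classes together held one in 41.0% to 95.4% of nuclei. These shares are set beside the level of free RNA further on.

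Igfals, which encodes the acid-labile subunit of the circulating IGF1 complex, was the only member called by diet. It stood at 33.9 CPM under the control and 26.1 CPM under the oncogene label on CD, and at 12.8 and 14.98 CPM on LPD. Both LPD libraries were lower, with a gap of 1.70-fold between the nearest libraries. That made 1 of 9 members lower on LPD, where 3.74% of all genes tested were called lower, and 0 of 9 higher, where 10.8% were. Igfals passed the filter through the CD libraries alone, so it could be called lower or not at all. The call was lost under a stricter choice of nuclei: with at least 500 genes and at most 5% mitochondrial UMIs the levels were 27.2, 22.8, 12.8 and 14.98 CPM in library order, still without overlap but no longer 1.5-fold apart. UMIs of Igfals were few, 255 and 275 in the LPD libraries. Thinned, 3.60% and 2.81% of hepatocyte-like nuclei held one on CD and 1.23% and 1.59% on LPD, beside 0.522% to 1.65% in the other classes.

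Igfbp4, which encodes a binding protein that holds IGF1 from its receptor, was the member that leaned higher on LPD. Its levels were 209.7, 204, 369 and 301 CPM in library order. The LPD libraries did not overlap the CD libraries, and the nearest were 1.43-fold apart, short of the limit. The other 6 members overlapped between diets. How many of all genes did not overlap, at any gap, was not counted. Non-overlap short of 1.5-fold therefore has no background here and is given as a description.

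The median gene itself was higher in the LPD libraries, by 0.14 to 0.27 on the log2 scale over the 4 pairs of an LPD and a CD library. With edgeR's TMM scaling, which removes most of such a shift, Ghr, Igfals and Igfbp4 still did not overlap between diets, and the nearest libraries of Igfbp4 were 0.33 apart on the log2 scale. The scaling moved the balance of all calls by diet from 74.4% higher on LPD to 55.5%.

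The injection labels set apart a different part of the axis. Here a call needs 1 pair of libraries, not all 4, so its counts are not set against those by diet. On CD, 4 of 9 members were called higher in the library labelled oncogene, where 7.68% of all genes tested were, and 1 was called lower, where 10% were. On LPD, 8 members passed the filter for that pair of libraries, all but Igfals. Of these, 3 were called higher in the library labelled oncogene (4.94% of all genes tested) and 1 lower (4.72%). Under TMM the balance of calls on CD moved from 43.3% higher to 66.0%, and on LPD from 51.1% to 52.0%, with the same members called.

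Socs2, a feedback inhibitor that growth hormone induces through STAT5B, was called higher under the oncogene label on both diets as labelled. Its levels were 34.2 CPM in the library labelled CD control, 108 in CD oncogene, 64.6 in LPD control and 386 in LPD oncogene. The log2 ratio of oncogene to control label was 1.66 on CD (interval 1.58 to 1.74) and 2.58 on LPD (2.49 to 2.67), a 3.15-fold and a 5.97-fold difference. With the CD labels exchanged, the ratio on CD would be -1.66 and the signs would differ. Of nuclei thinned to 1000 UMIs, 29.2% held a Socs2 UMI in the library labelled LPD oncogene against 6.04% in LPD control. The other classes held one in 9.93% and 4.87% of nuclei in those libraries. In the library labelled CD control the hepatocyte-like share was 3.31% and that of the other classes 4.73%, with 10.3% in stellate-like nuclei.

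Cish, the other feedback inhibitor of the pair, was called on LPD and not on CD. It stood at 51.3 and 53.6 CPM on CD, 14.5 CPM in the library labelled LPD control and 76.6 CPM in LPD oncogene. The log2 ratio by label was 2.40 on LPD (interval 2.22 to 2.59) and 0.06 on CD (-0.02 to 0.14); the difference between these ratios was not tested. In the library labelled LPD control, a Cish UMI was found in 1.59% of thinned hepatocyte-like nuclei and 2.09% of the other classes. Kupffer-like and stellate-like nuclei of that library had 0 Cish UMIs, with upper limits of 11.6 and 11.002 CPM, under the 14.5 CPM of hepatocyte-like nuclei (interval 12.9 to 16.3).

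Igf1, the hormone gene itself, was called on both diets, in opposite directions as labelled. It measured 1708 CPM in the library labelled CD control and 872 CPM in CD oncogene, 798 CPM in LPD control and 2287 CPM in LPD oncogene. By label it was 1.96-fold lower on CD (log2 ratio -0.97, interval -0.99 to -0.95) and 2.87-fold higher on LPD (1.52, interval 1.49 to 1.55). With the CD labels exchanged it would be higher on both diets, by 0.97 on CD. The share of thinned nuclei with a UMI followed the same order, 76.9%, 54.1%, 49.7% and 83.5%, beside 35.8%, 38.1%, 15.3% and 28.8% in the other classes.

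Igfbp1 encodes a binding protein that insulin represses and that rises in fasting. It was at 10.9 CPM in the library labelled CD control, far under the 158 CPM of CD oncogene, the 67.0 CPM of LPD control and the 100.4 CPM of LPD oncogene. By label the log2 ratio was 3.85 on CD (interval 3.72 to 3.99), a 14.5-fold difference, and 0.58 on LPD (0.48 to 0.69), just under the calling limit. Of thinned hepatocyte-like nuclei, 1.05% held a UMI in the library labelled CD control and 13.1% in CD oncogene.

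Igfbp2, another fasting-responsive carrier, ran against Igf1. Its levels were 149 CPM in the library labelled CD control, 378 in CD oncogene, 393 in LPD control and 188 in LPD oncogene. The library labelled oncogene was 2.53-fold higher on CD (log2 ratio 1.34, interval 1.30 to 1.38) and 2.09-fold lower on LPD (-1.06, counting interval -1.12 to -1.005). With the CD labels exchanged it would be lower on both, by -1.34 on CD. Igfbp2 was high in the libraries where Igf1 was low, and low where Igf1 was high.

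Stat5b, the transducer, was called on CD, at 252 CPM in the library labelled CD control and 462 CPM in CD oncogene (1.83-fold, log2 ratio 0.87, interval 0.84 to 0.90). The LPD libraries, at 439.7 CPM in LPD control and 363 CPM in LPD oncogene, lay 0.28 apart on the log2 scale and were not called. Ghr, Igfals and Igfbp4 were not called by label on either diet.

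**Figure D2:**
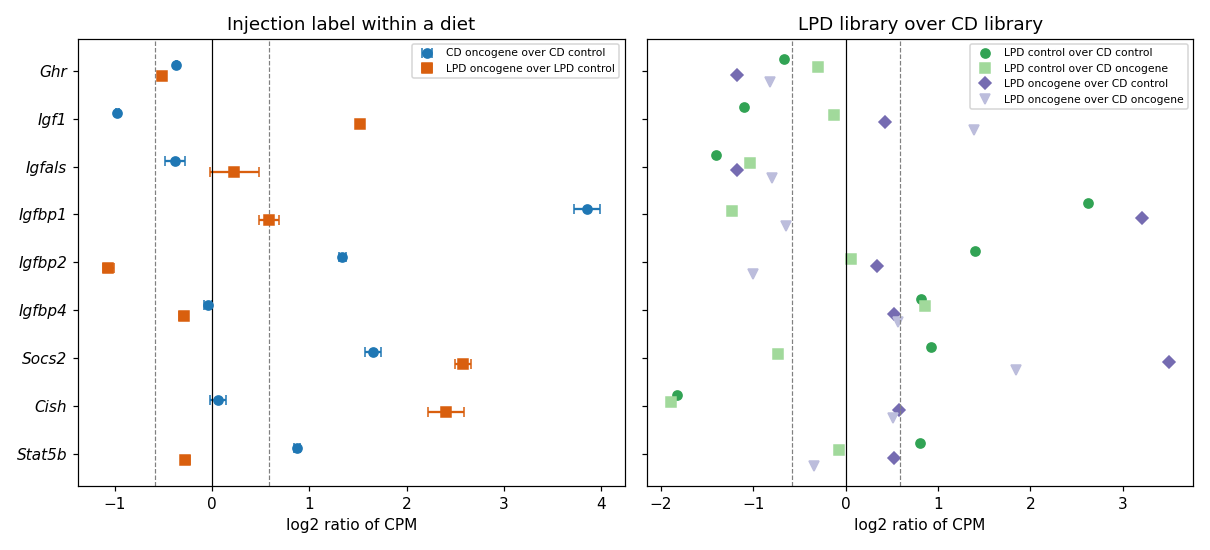
Log2 ratios of CPM (x axis) for the 9 genes (y axis) in hepatocyte-like nuclei: oncogene over control label within CD and within LPD on the left, with 95% counting intervals, and each LPD library over each CD library on the right. Dashed lines mark the 1.5-fold limit; Socs2 lies beyond it on both diets at 1.66 and 2.58, Igf1 and Igfbp2 lie beyond it on opposite sides, and only Igfals has all 4 ratios by diet beyond it on 1 side.

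The nuclei of the library labelled CD control that held a transgene UMI were few, and 81 of 85 fell in the pericentral range of the zone score described below. The study places oncogene-expressing hepatocytes mostly in periportal and midzonal areas, with pericentral-like expression of Glul, Cyp2e1 and Cyp1a2, which are score genes. For such nuclei the range describes expression and not a place in the lobule. Within the pericentral range, nuclei with a transgene UMI had 34.5 CPM of Igfbp2 against 73.2 CPM in the 2364 nuclei without one (log2 ratio -1.08, interval -1.69 to -0.53). Ghr was higher in them by 0.17 (0.146 to 0.201) and Igf1 lower by a ratio of -0.13 (-0.220 to -0.0403). Their Igfals was 10.2 against 27.7 CPM on 8 UMIs, while the intervals for Igfbp1, Igfbp4, Socs2, Cish and Stat5b included 0. A nucleus with a transgene UMI was deeper, at a median of 7387 against 5107 UMIs, and depth was not matched.

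Hepatocytes near the portal vein and near the central vein divide the work of the liver between them. A score from 10 pericentral and 10 periportal marker genes, none of them an axis gene, ranked the hepatocyte-like nuclei of each library, and each library was divided into 3 ranges of equal size. Of 12 zone genes kept out of the score, the 6 pericentral ones were higher in the pericentral range in all 4 libraries and the 6 periportal ones lower. The ranges are cuts of a continuous score: 16.1% to 17.5% of nuclei lay within 0.1 SD of a limit.

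Socs2 was the only member with a called zone. Its pericentral level was 48.5, 143, 91.6 and 493 CPM in library order, and its periportal level was 19.5, 76.4, 45.1 and 292 CPM. The pericentral range was higher in all 4, with log2 ratios of 0.76 to 1.32. It made 1 of 9 members pericentral, where 2.65% of all genes tested were so called, and 0 of 9 periportal, where 2.34% were. Along 10 bins of the score with equal numbers of nuclei, Socs2 went from 273 CPM in the most periportal bin to 521 CPM in the most pericentral bin of the library labelled LPD oncogene.

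Igf1 and Cish lay the other way in every library without reaching 1.5-fold in all. Igf1 was lower in the pericentral range by log2 ratios of -0.36 in the library labelled CD control, -0.65 in CD oncogene, -0.999 in LPD control and -0.63 in LPD oncogene. In the most pericentral bin of the library labelled LPD control it was 355 CPM, against 1025 CPM in the most periportal bin. The ratios of Cish were -0.85 and -0.89 on CD and -0.25 and -0.28 on LPD, where the interval for LPD control included 0. Feedback genes of the same pathway thus had ratios of opposite sign across the lobule, Socs2 higher toward the central vein and Cish toward the portal vein.

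Igfbp2 followed neither slope. It was highest between the ends of the score and lower at both ends. In the libraries labelled CD oncogene, LPD control and LPD oncogene it peaked in bin 8 of 10, at 496, 563 and 263 CPM. In the last bin it was 197, 224 and 95.6 CPM in these libraries. In the library labelled CD control it peaked earlier, in the fifth, at 237 CPM, and was 23.5 CPM in the last, 10.1-fold lower. Its pericentral range in that library had 71.3 CPM with, and 73.2 CPM without, nuclei that held a transgene UMI. That left out 81 nuclei and kept 2364, and nuclei that carry a transgene without a UMI of it stayed in. These values therefore cannot show the part of transgene-bearing nuclei. The log2 ratio of the outer ranges of Igfbp2 was -1.29 in the library labelled CD control and 0.09 to 0.43 in the other libraries.

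Ghr also set that library apart. It went from 8528 CPM in the most periportal bin to 15295 CPM in the most pericentral bin of the library labelled CD control (log2 ratio of the outer ranges 0.58, interval 0.57 to 0.59). The ratio was 0.11 in CD oncogene, -0.07 in LPD control and -0.08 in LPD oncogene. Igfbp1 had ratios of 0.03 to 0.46 and Stat5b of 0.07 to 0.25, with an interval that included 0 for Igfbp1 in CD control and for Stat5b in LPD control. Igfals had -0.54 and -0.79 on CD and intervals that included 0 on LPD, and Igfbp4 had ratios of -0.27 and -0.35 on CD and 0.16 and 0.07 on LPD.

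For Igf1, Socs2 and Igfbp2 the sign of the difference between labels was the same inside each range. Igf1 was higher under the oncogene label on LPD by log2 ratios of 1.80 in the pericentral, 1.44 in the middle and 1.43 in the periportal range, and lower on CD by -1.12, -0.96 and -0.83. For Socs2 the ratios on LPD were 2.43, 2.71 and 2.69 in the same order, and on CD 1.56, 1.48 and 1.97. Igfbp2 on CD had 2.38 in the pericentral range against 1.04 and 1.00 elsewhere.

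**Figure D3:**
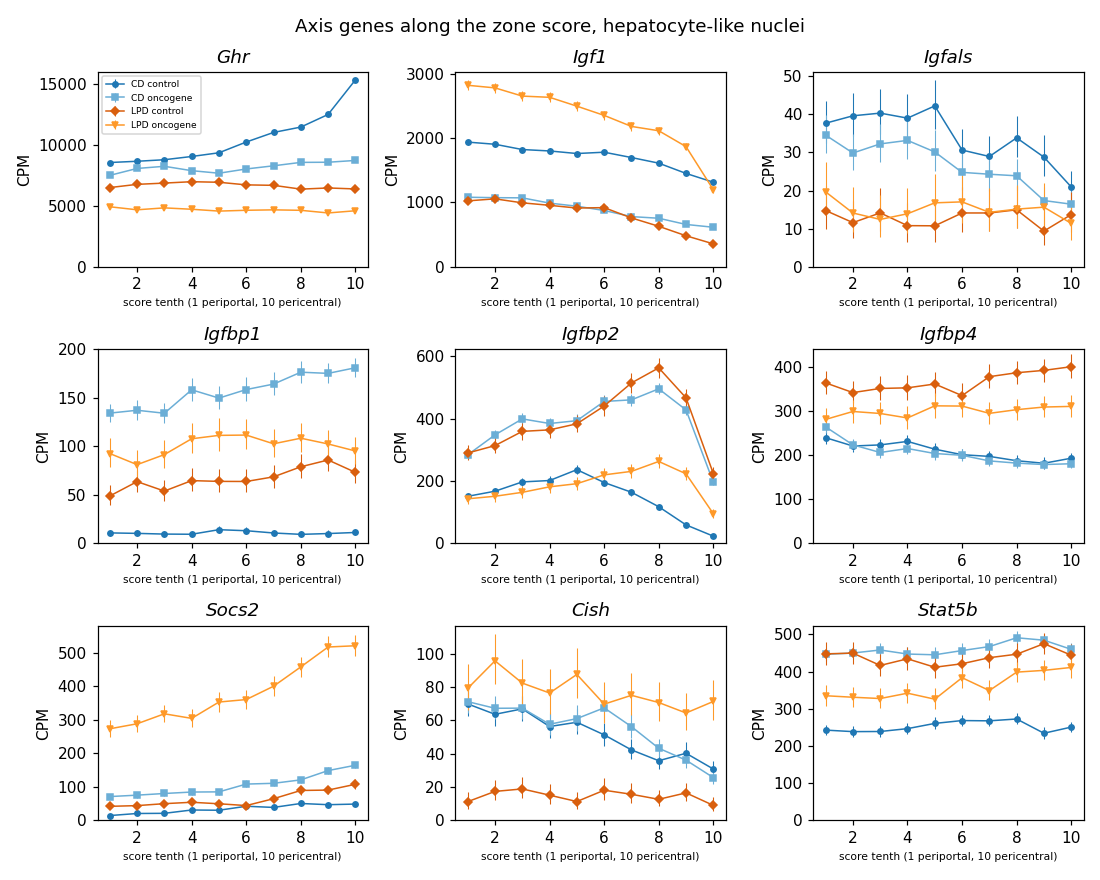
CPM of each of the 9 genes (y axis, from 0) along 10 bins of the zone score within each library (x axis, 1 most periportal to 10 most pericentral); points are sums over the nuclei of a bin and bars 95% counting intervals. Socs2 climbs toward the pericentral end, Igf1 declines toward it, Igfbp2 peaks between the ends, and Ghr reaches 15295 CPM in the library labelled CD control.

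Outside hepatocytes, 10 classes named from fixed markers were compared; 142 proliferating nuclei, which can be of any type, were left out. Against these classes together, 6 of 9 members (Ghr, Igf1, Igfals, Igfbp1, Igfbp2 and Igfbp4) were called higher in hepatocyte-like nuclei in all 4 libraries, where 15.5% of all genes tested were, and 0 of 9 lower, where 24.6% were. Igfbp2 was 2.02- to 3.44-fold higher and Ghr 2.18- to 4.92-fold. The exceptions were Stat5b, Socs2 and Cish. Socs2 was 43.2 CPM in the other classes and 34.2 CPM in hepatocyte-like nuclei of the library labelled CD control, but 121 and 386 CPM in LPD oncogene. Cish was 20.1 and 14.5 CPM in the library labelled LPD control, but 32.8 and 76.6 CPM in LPD oncogene.

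RNA of hepatocyte genes was found in all of these classes. It is called free RNA here, though its source was not tested. The secreted-protein genes Alb, Apoa1, Apob, Ttr and Serpina1c had a median level of 0.783 to 1.14 of the hepatocyte-like level in the other classes. As a floor for nuclear transcripts, 327 genes with at least 200 CPM in hepatocyte-like nuclei of every library and called higher there were taken, after the first values were seen. The libraries hold the classes in unequal shares, so each class was set against the hepatocyte-like level of the same library: the UMIs found were divided by those its nuclei would have at that level. On this matched ratio the median of the 327 genes was 0.221 in Kupffer-like nuclei, 0.254 in sinusoidal endothelial-like nuclei and 0.569 in T or NK-like nuclei. For Ghr, Igf1, Igfals, Igfbp1 and Igfbp2, no class had an interval above the 95th percentile of these genes. These members were called higher in hepatocyte-like nuclei by the same rule that chose the 327 genes, so this outcome was likely beforehand. It cannot decide their source, and their level there is not told apart from free RNA. The ratio of Igf1 in Kupffer-like nuclei was 0.584, 0.834, 0.580 and 0.240 in library order, above the floor median in 4 of 4 libraries, and the matched ratio of 0.383 was under the 95th percentile of 0.529.

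Of 90 pairs of a member and a class, 9 had an interval above that percentile. Summing the libraries without matching gave 12, and the ratio matched by library was chosen after those values were seen. Stat5b, Cish and Socs2 were not called by the rule that chose the floor genes, which makes such intervals more likely for them. Stat5b, the shared transducer of many cytokine receptors, accounted for 5 of the 9, in B-like, Kupffer-like, monocyte or dendritic-like, sinusoidal endothelial-like and T or NK-like nuclei, at matched ratios of 0.616 to 0.913. Cish accounted for 2 of them. In mesothelial-like nuclei its matched ratio was 1.70 (interval 1.27 to 2.24) on 51 UMIs, and 1.33 to 1.63 in each of the 3 libraries with at least 50 such nuclei. In T or NK-like nuclei it was 1.09 (0.901 to 1.31). Socs2 was above the percentile in stellate-like nuclei, at 0.694 (0.587 to 0.816). It was 86.9 CPM there in the library labelled CD control, above the hepatocyte-like 34.2 CPM, and 121 CPM in LPD oncogene, below the hepatocyte-like 386 CPM. In mesothelial-like nuclei Socs2 was 0.782 to 0.819 of the hepatocyte-like level in each of 3 libraries. Igfbp4 was above the percentile in vascular endothelial-like nuclei, at 0.883 (0.726 to 1.06) on 111 UMIs.

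**Figure D4:**
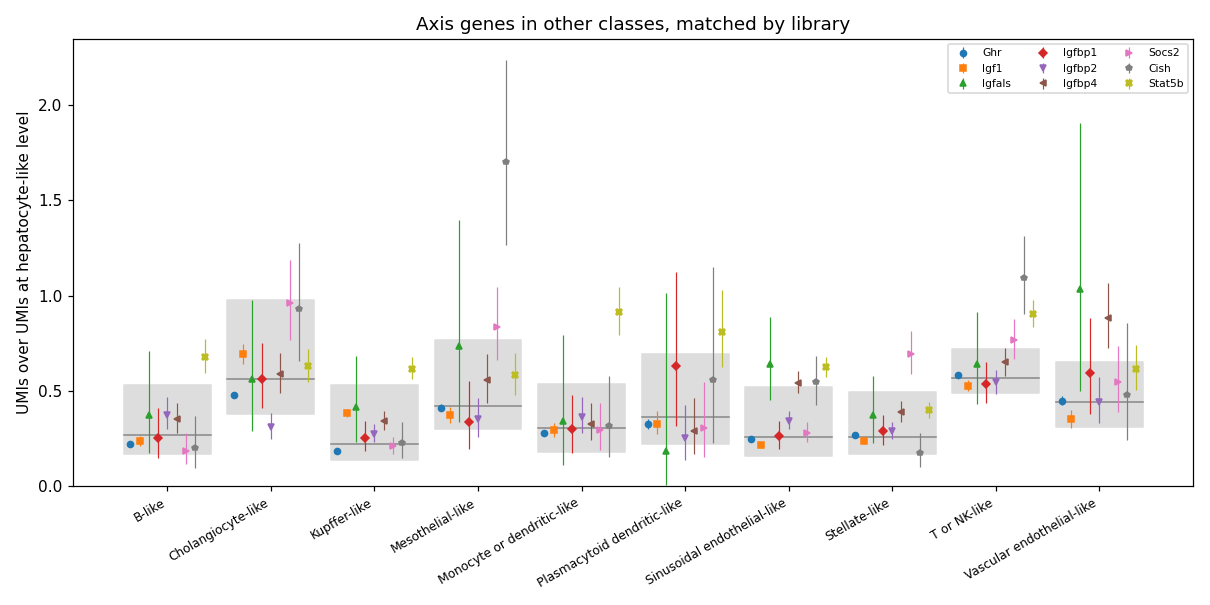
UMIs of each of the 9 genes in 10 other classes (x axis) over the UMIs expected at the hepatocyte-like level of the same library (y axis, linear, from 0), with 95% counting intervals. Grey boxes span the 5th to 95th percentile, and the line the median, of 327 hepatocyte-high genes; Cish at 1.70 in mesothelial-like nuclei, Socs2 at 0.694 in stellate-like nuclei and Igfbp4 at 0.883 in vascular endothelial-like nuclei lie above the boxes with their intervals.

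Likeness across 12 sets, 3 zone ranges in each of 4 libraries, was measured by Pearson's r of log2(CPM + 1) among 4642 genes with at least 50 CPM in a set. Sets of a library share its depth and preparation, so r is a description. For Igfbp1 the closest genes were Gm4951 (r = 0.99), Irs2 (0.98) and Ahcy (0.98). Irs2, the insulin receptor substrate that insulin represses in liver, was at 21.95, 193, 121 and 129 CPM in library order, with the same low library as Igfbp1. For Igf1 they were Sqle (0.97), an enzyme of sterol synthesis, Zfp809 (0.95) and Rnd3 (0.95), and Sqle was at 38.0, 9.06, 11.1 and 47.9 CPM. For Ghr they were Abcd3 (0.97), a peroxisomal transporter, Rnf103 (0.96) and Tpmt (0.95). Igfbp2 had weaker company in Ap3b1 (0.93), the bile acid conjugating enzyme Baat (0.93) and Khnyn (0.92). For Socs2 they were Otulin (0.96), D230025D16Rik (0.96) and the mitochondrial calcium channel Mcu (0.95).

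The rest of the pathway was read from 6 gene lists. They were chosen with earlier results of these data known. Their counts and medians beside those of all genes are therefore descriptions and no test of enrichment. Of 27 further signalling genes of the axis, 15 passed the filter, and 1 of these was called higher and 0 lower on LPD, where 10.8% of all genes tested were higher and 3.74% lower. That gene was Ptpn11, the phosphatase SHP2, at 31.7, 32.2, 53.5 and 51.4 CPM. The median of the 15 was 0.26 on the log2 scale for LPD minus CD, beside 0.21 for all genes tested. Jak2 was at 51.8, 33.2, 33.3 and 30.2 CPM, and Igf2r, which clears IGF2, at 76.9, 28.3, 23.9 and 27.0 CPM. Stat3 was highest in LPD oncogene, at 168, 207, 239 and 365 CPM. Onecut1 (HNF6), a liver factor that growth hormone induces, had 694, 415, 52.6 and 799.5 CPM, lowest in the library labelled LPD control as Cish was. Bcl6, a repressor of STAT5 targets, had 205, 420.05, 582 and 211 CPM, the order of Igfbp2. Igf1r, Igf2, Igfbp3 and the pappalysin genes were under the filter in hepatocyte-like nuclei.

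Genes of the male pattern of growth hormone action were lower on LPD or not called. All 15 passed the filter, 7 were called lower and 0 higher on LPD (3.74% and 10.8% of all genes tested), with a median of -1.88 on the log2 scale beside 0.21 for all genes. By label on CD 3 were called higher and 6 lower of 15 (7.68% and 10% of all genes tested), and on LPD 2 higher and 7 lower of 12 (4.94% and 4.72%). By diet, Cyp4a12a, Cyp4a12b and Ugt2b38 passed the filter through CD libraries alone, so they could be called lower or not at all. Selenbp2 was at 368 and 575 CPM on CD and 12.03 and 26.6 CPM on LPD; Cyp4a12b, an arachidonic acid hydroxylase, was at 168 and 78.95 CPM on CD and 3.46 and 5.39 CPM on LPD; and its neighbour Cyp4a12a was at 169 and 97.6 against 7.02 and 16.3 CPM. The steroid hydroxylase Cyp7b1 was also lower, at 2765 and 1305 against 419 and 543 CPM. The pheromone carriers Mup20 and Mup3 and the transporter Slco1a1, also of the male list, overlapped between diets, with mean differences of 0.76, 0.37 and 0.08. Mup, Cyp4a12 and Serpina1 genes have near-identical copies, so the split of reads among them is uncertain.

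Genes of the female pattern were mostly at or near 0, and 4 were called higher on LPD. Of 21, 7 passed the filter, 4 of these were called higher on LPD and 0 lower (10.8% and 3.74% of all genes tested), with a median of 2.45. By label on CD 0 of 3 were called higher and 1 lower (7.68% and 10% of all genes tested). On LPD 2 of 7 were called higher and 0 lower (4.94% and 4.72%). By diet, Cux2, Nipal1, Fmo2 and Abcd2 passed the filter through LPD libraries alone, so they could be called higher or not at all. The count and the median by diet depend on this. Cux2, a repressor of male-pattern genes, was at 0.456 and 0.282 CPM on CD and 177 and 137 CPM on LPD. Trim24 was at 47.1 and 33.0 against 251 and 330.3 CPM, Nipal1 at 2.61 and 5.57 against 22.6 and 31.04 CPM, and Fmo2 was the other. The receptor gene Prlr overlapped between diets (mean difference 1.12), as did Abcd2 and Tox. Classic members of the female list such as Cyp3a41a, Cyp2b13, A1bg and Sult3a1 were near 0 in all 4 libraries. The Y-linked gene Uty was detected in 42.8% to 70.4% of hepatocyte-like nuclei of each library, and Xist had 4 to 38 UMIs among hepatocyte-like nuclei and 0 in the other classes of any library.

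Other inputs to the axis differed between the libraries as well. Of 11 fasting and insulin genes, all passed the filter and 1, Foxo1, was called higher on LPD, near the 10.8% of all genes tested, at 189 and 284 CPM on CD and 443 and 589 CPM on LPD. By label on CD 5 were called higher and 4 lower of the 10 tested (7.68% and 10% of all genes), and on LPD 2 higher and 4 lower of 11 (4.94% and 4.72%). Pck1, the gluconeogenic enzyme and also one of the periportal score genes, was at 74.2 CPM in the library labelled CD control and 1278, 2410.4 and 1176 CPM in the others, the order of neither diet nor label; Fasn was at 148, 53.6, 87.7 and 39.5 CPM. Of 13 amino acid deprivation genes 5 passed the filter and 3 were called higher on LPD (10.8% of all genes tested). Fgf21, Sesn2 and Ddit3 passed it through LPD libraries alone, so they could be called higher or not at all. Fgf21, a hormone of protein restriction, was at 0.695 and 0.282 CPM on CD and 34.1 and 126 CPM on LPD; Sesn2 was at 4.47 and 5.83 against 20.9 and 20.2 CPM; and Atf5 at 39.5 and 79.3 against 141 and 144 CPM. Of 12 clock genes 11 passed the filter, with 4 called higher and 2 lower on LPD (10.8% and 3.74% of all genes tested). Per1, Per2 and Dbp passed it through LPD libraries alone and Npas2 through CD libraries alone, so each could be called only toward that diet. Npas2 was at 20.3, 152, 3.31 and 6.48 CPM, Per1 at 1.52, 2.39, 54.5 and 41.8 CPM, and Dbp at 15.8, 0.395, 70.3 and 23.1 CPM. Clock phase, feeding state and the axis move together in liver; their part in the members' differences was not tested.

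**Figure D5:**
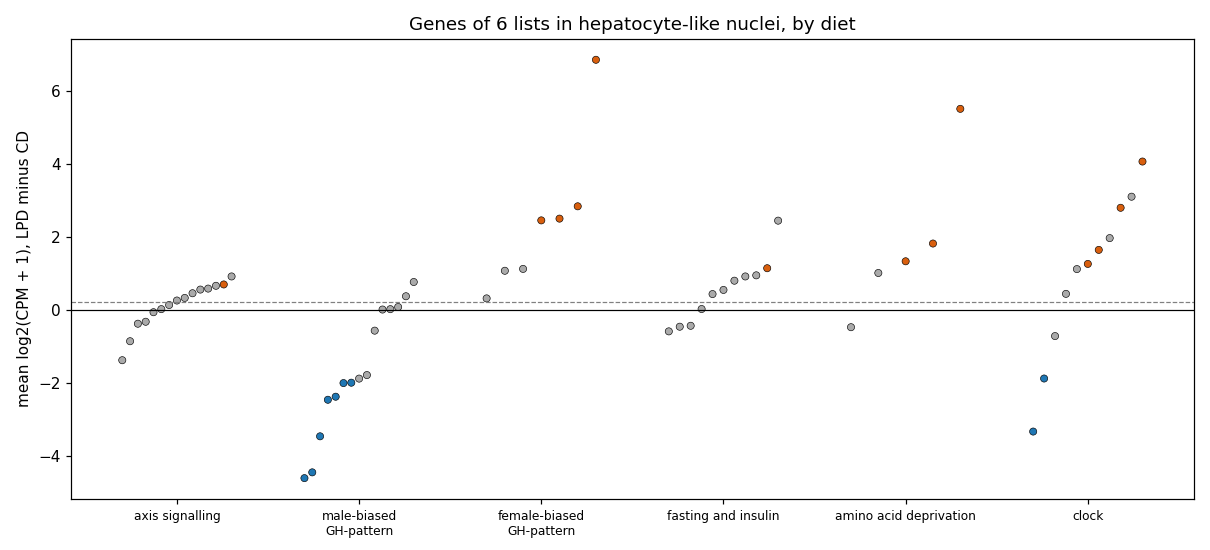
Mean log2(CPM + 1) of the LPD libraries minus that of the CD libraries (y axis) for each gene that passed the filter, by list (x axis), in hepatocyte-like nuclei. Orange points are called higher and blue points lower on LPD, grey points are not called, and the dashed line is the median of all genes at 0.21. Of the male-pattern genes 7 of 15 are blue, and of the female-pattern genes 4 of 7 are orange. A gene that passed the filter on a single diet could be called only toward that diet.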

How the data were processed

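Nuclei from frozen mouse liver were profiled with 10x 3′ chemistry. The authors deposited filtered matrices of UMI counts per gene and nucleus for 4 libraries, made with Cell Ranger 9.0.1 per the file headers on mm10 with human c-MET and CTNNB1 sequences added; their notes also name Seurat 5. Here nuclei with 200 to 7000 genes and at most 21% mitochondrial UMIs were kept. In Python 3.11.15, 5000 variable genes without the members gave 50 components, which were aligned between libraries with a Python version of Harmony, 23 of them were used, and Louvain clusters were named from fixed markers. The naming limits (3-fold, at least 3 markers and 50% of a list) were set after clusters were seen. Clusters of 4 classes with at least 2.5 times the usual depth were removed as doublets, a cluster of 2208 nuclei led by haemoglobin genes stayed unnamed, and 179 barcode sequences occurred in more than 1 library. Counts were summed per library and set and divided by their total (CPM).

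Calls used a pseudocount of 1 CPM and a 1.5-fold limit, by diet only where the nearest libraries of the diets were that far apart, and by zone and class only in all 4 libraries. Intervals are exact Poisson, conditional binomial or Clopper-Pearson at 95%, and the upper limit of a level of 0 CPM is the exact Poisson one. A transgene share of 0 was given a limit of 3 counts. PCR and library preparation add error that these intervals do not cover. The call rules were run on Poisson counts simulated from a single pooled hepatocyte-like profile, with changes of known size set in some genes. The simulated libraries differed otherwise by counting error only. The run therefore checks the code and cannot show how often real libraries give false calls. TMM factors came from edgeR 4.0.16 in R 4.3.3. Genes named were the 9 members, the 3 largest and 3 smallest differences by diet of each list, and the 3 genes most alike; further list genes named (among them Bcl6, Cyp7b1, Fmo2, Igf1r and the undetected ones) were chosen after their values were seen. The members and lists were chosen with earlier results of these data known. Alternatives were another scaling, averaging, filters, pseudocount, fold, zone limits and leaving out libraries.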

Additional observations from a re-analysis of the deposited data

Results flagged for a closer look

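Igf1, Igfbp2 and Stat5b had ratios of oncogene to control label of opposite sign on the diets, each with counting intervals that left out 0. The ratio on LPD minus that on CD was 2.49 on the log2 scale for Igf1, -2.40 for Igfbp2 and -1.15 for Stat5b. Ghr was higher in the pericentral than in the periportal range of both CD libraries and lower in both LPD libraries, with a difference in mean log2 ratio of -0.42, which was -0.19 without the library labelled CD control and -0.66 without CD oncogene. These differences were not tested, since each group is 1 library, and the first 3 use the injection labels of the CD libraries, which the transgene counts go against. With the CD labels exchanged they would be 0.55 for Igf1, 0.28 for Igfbp2 and 0.60 for Stat5b, with ratios of 1 sign on both diets for each, while Socs2 would have ratios of opposite sign (4.24) and so would Igfbp1 (4.44) and Ghr (-0.88).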

How the results depend on the processing

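No paired analysis was possible because each group is 1 library. The counts of members called were 1 by diet, 5 by injection label on CD, 4 by label on LPD, 1 by zone and 6 by cell type. With a calling fold of 2 they were 0 by diet, 3 on CD, 4 on LPD, 0 by zone and 3 by cell type. By diet the count was 0 with at least 500 genes and at most 5% mitochondrial UMIs, and 0 with at most 1%, an alternative chosen after seeing the data; by cell type that last filter left 43 nuclei of other classes in the library labelled CD control and 1 member called. Leaving out 1 library at a time leaves 1 library on a diet, which loosens the rule. Among all genes 1564 to 1967 were then called by diet, against 1053 in the main run. Of the members 2 to 4 were called, so the added ones are not read as results about these genes. Igfbp1 was added without the library labelled CD control, and Ghr, Igfbp1 and Socs2 without CD oncogene. Ghr and Socs2 were added without LPD control, and Igfbp4 and Cish without LPD oncogene, while Igfals was called each time. In the pericentral range alone Igfbp4 was called by diet and Igfals was not. TMM added Stat5b by cell type, and averaging the CPM of single nuclei added Igfbp1 by label on LPD. Of 414 single values of members under an alternative, 244 stayed within the counting interval of the main value, 170 did not, and 0 of the called ones changed sign. Genes called by diet numbered 1053, against 370 at a fold of 2, 2004 with no filter on low values and 1564 to 1967 without 1 library; by label 1147 on CD (358 and 2700 under the first 2 of these) and 659 on LPD (205 and 1520); by zone 375 (202 at a fold of 2); and by cell type 3767, against 5766 with no filter and 2216 with at most 1% mitochondrial UMIs. Depth limits Igfals and Cish most, with 255 and 289 UMIs in the library labelled LPD control.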
